A study of Xenopus laevis with 8 samples.

Results

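The genes described here are those of fibroblast growth factor (FGF) and mitogen-activated protein kinase (MAPK) signalling, with the feedback inhibitors and transcription factors that act downstream of it. They were measured in late neurulae (stage 18) of the frog Xenopus laevis, each divided into its front and back part, called head and tail here. Members were chosen by gene name: a probe set belonged if its annotated symbol, without the ending .L or .S that marks the copy of a gene in this allotetraploid species, began with the names of FGF ligands, receptors and adaptors, MAP kinases and their upstream kinases, Sprouty, Spred, dual-specificity phosphatase, FLRT, ETV, egr1, Fos or Jun genes. Of 15491 probe sets on the array without its controls, 62 with a single symbol belonged, and they stood for 42 of 6504 genes with such a symbol. A further 4 matched but carried several symbols and were not interpreted.

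There were 4 arrays for each tissue: replicates 1 to 3 hold RNA of a single embryo and replicate 4 that of a pool. All embryos were untreated, and no strain, clutch or pool size is given in the labels. The labels also leave unsaid whether equal numbers mark parts of the same embryo. The p-values therefore set a difference only against the spread of these arrays, in which single embryos and a pool count alike. Precision is limited by having 4 arrays a tissue. The values are MAS5 signals, a summary of the probes of a probe set on a linear scale, given below as log2 signal. The median signal per array ran from 326.9 to 389.7 units, the lowest being tail replicate 1. Of marker probe sets tested, 8 of 9 head markers passed as higher in heads and 5 of 5 tail markers as higher in tails. Of all probe sets tested, 2.00% and 2.61% did. A further 13 head and 3 tail marker probe sets were too dim to be tested. With these included, all heads lay above all tails for 14 of 22 head marker probe sets (773 of all 15491). All tails lay above all heads for 7 of 8 tail marker probe sets (670 of all 15491), the exception being hoxb9. The tail markers hoxa7.L, hoxc8.S, tbxt.S and tbx6.L (head means 4.81, 5.15, 7.67 and 7.35) cleared the filter on dim probe sets only through their tails. The head marker six6.L and an ag1.S probe set (tail means 4.34 and 7.29) cleared it only through their heads. The lists were also chosen with earlier results of these data known, so these counts are not an independent check of the labels. The summed signal of 23 skeletal muscle marker probe sets ran from 54000 to 76300 in heads and from 52200 to 116000 in tails, the highest being tail replicate 1. Of these 23, 18 were tested, and 4 passed as higher in tails and 0 as higher in heads. This is 22.2%, against 4.62% of all probe sets tested. The 4 were of myf5.L, nexn.S, klhl41.L and klhl41.S, and myf5.L (head mean 6.95) cleared the filter only through its tails.

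FGF ligands are secreted and bind receptor tyrosine kinases on nearby cells, usually with heparan sulfate as a cofactor. The activated receptor phosphorylates the docking protein FRS2, and the signal passes through Ras to a cascade of a MAP3 kinase, a MAP2 kinase and a MAP kinase, which enters the nucleus and turns on ETS factors, egr1 and the pathway's own inhibitors, among them Sprouty proteins and MAP kinase phosphatases. In the frog neurula FGF signalling is known at the posterior end, where the tail forms, and at local centres of the head such as the midbrain-hindbrain boundary and the anterior neural ridge. Stress-activated MAP kinases, JNK and p38, run in parallel cascades.

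Few of these genes differed between heads and tails by more than the spread between arrays. Of the 62 probe sets, 40 had a mean signal above the filter on dim probe sets and were tested, and 22 lay under it. In limma, fitted over all 9295 probe sets above the filter with a threshold of 0.05 on the adjusted p, 1 of the 40 passed as higher in tails (2.61% of all probe sets tested did) and 0 passed as higher in heads (2.00% of all). In either direction this is 2.50% of the members against 4.62% of all probe sets, so a difference between the fragments was called no more often among these genes than over the array. At an unadjusted p under 0.05 there were 1 higher in heads and 6 higher in tails, against 8.84% and 8.61% of all probe sets and 17.5% in either direction. All 4 tails lay above all 4 heads for 5 members (5.71% of all probe sets tested) and all heads above all tails for 0 (5.95% of all). Together these 5 are 12.5% of the members, beside 11.7% of all probe sets. Of the 40, 5 matched the rule by name only, among them 1 of the 5 without overlap. Over the 35 others, 2.86% passed and 4 (11.4%) had no overlap. At an unadjusted p under 0.05 these 35 had 1 higher in heads and 5 higher in tails. The head minus tail difference was above 0 for 19 of the 40 (56.0% of all probe sets), with a median of -0.06 on the log2 scale against 0.06 over all probe sets tested.

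**Figure D1:**
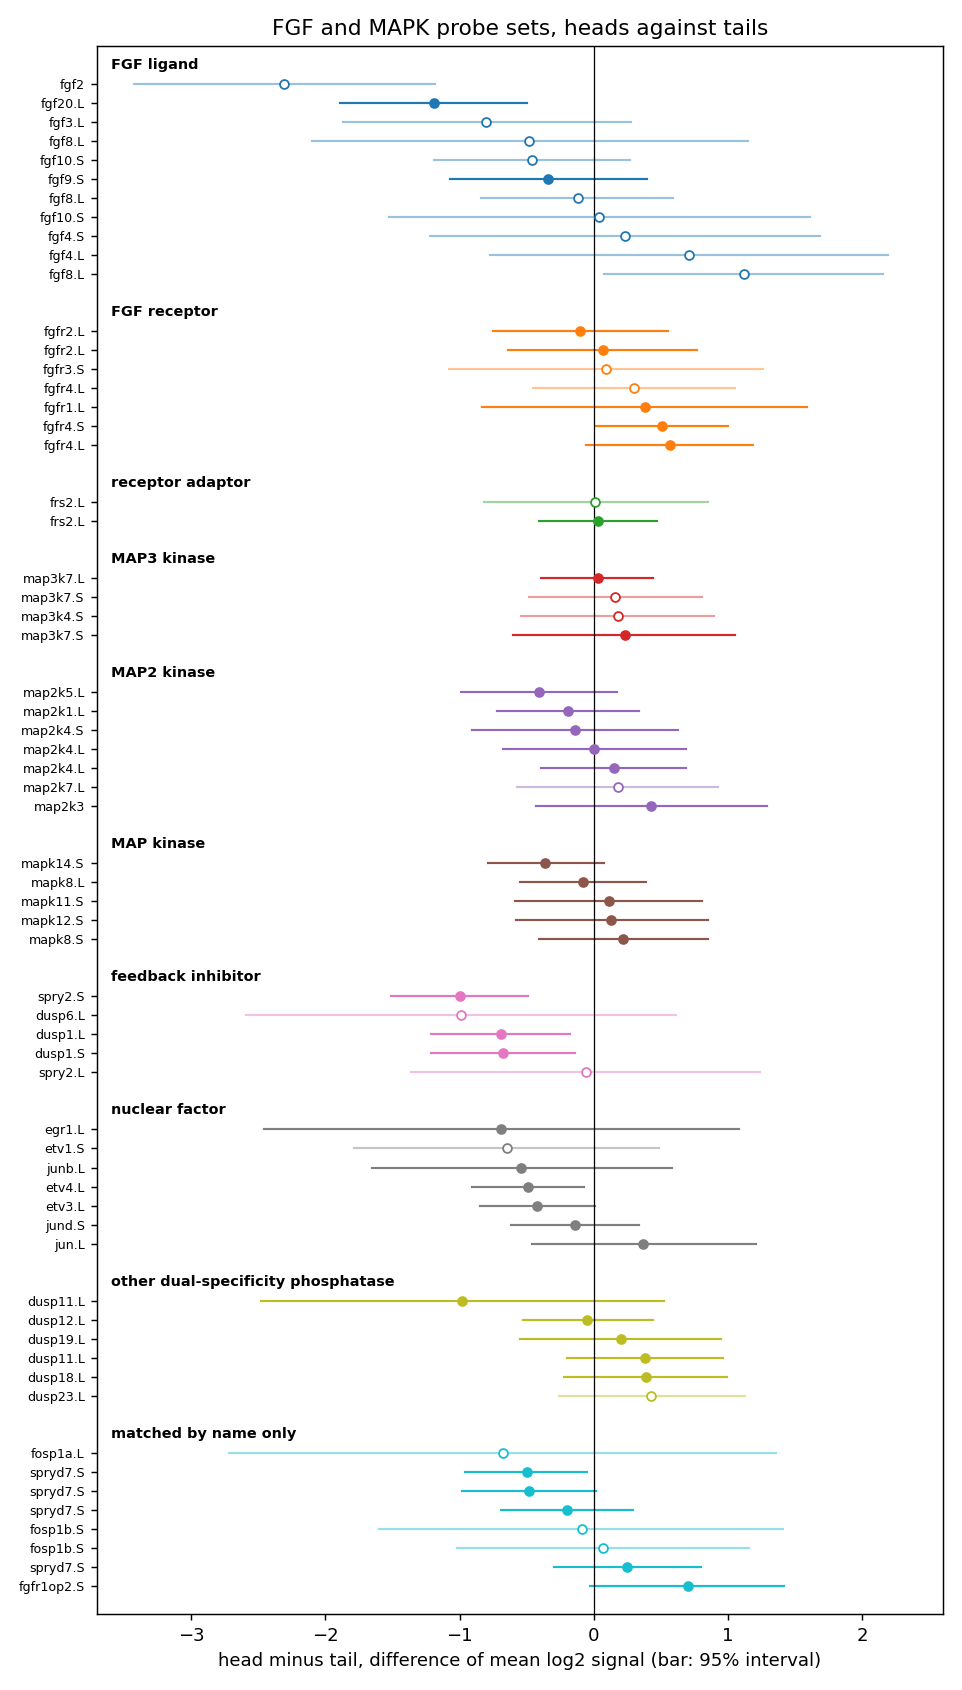
Each row is a probe set, placed by its head minus tail difference of mean log2 signal (x axis) with the 95% interval of the limma fit as a bar, in blocks by role. Filled points are the 40 tested probe sets, and open points the 22 under the filter, with intervals from a fit of all probe sets. The spry2.S point at -1.0 and both dusp1 points lie left of 0, and the interval of every MAP, MAP2 and MAP3 kinase probe set includes 0.

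The feedback inhibitors held the called difference. The gene spry2.S encodes Sprouty2, which is induced by receptor tyrosine kinase signalling and limits it. Its log2 signal was 8.94, 8.23, 8.23 and 8.44 in head replicates 1 to 4 and 9.54, 9.55, 9.26 and 9.49 in tail replicates 1 to 4. Every tail lay above every head, and head replicate 1 was the head nearest to the tails. The head mean was 8.46 ± 0.34 and the tail mean 9.46 ± 0.14 (SD over n = 4 arrays), a 2.00-fold higher signal in tails (head minus tail -1.0, 95% interval -1.51 to -0.49, limma adjusted p = 0.0309). A bulk fragment cannot tell fewer cells expressing a gene from less RNA per cell. When 1 array was left out, the difference stayed between -1.16 and -0.93, but the adjusted p passed in 2 of 8 cases (without head replicate 1, 0.0113, and without tail replicate 1, 0.0480) and missed in 6, the highest being 0.105 without head replicate 3. It was 0.0516 with no filter and 0.140 in the 6 single-embryo arrays. The probe set of the other copy, spry2.L, lay under the filter and ran from 5.35 to 7.5 in heads and from 5.25 to 7.26 in tails, and the groups overlapped.

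The MAP kinase phosphatase gene dusp1, whose protein inactivates MAP kinases and which is itself an early response gene, had 1 probe set for each copy. For dusp1.L the heads were at 11.68, 11.50, 11.13 and 11.44 and the tails at 12.06, 11.61, 12.38 and 12.47. Only tail replicate 2 lay among the heads, below head replicate 1. For dusp1.S the heads were at 7.92, 7.79, 7.65 and 8.34 and the tails at 8.42, 8.82, 8.57 and 8.59, with no overlap, the head pool being the closest to the tails. The head minus tail differences were -0.69 (95% interval -1.21 to -0.18) and -0.68 (-1.21 to -0.14), and neither passed (limma adjusted p = 0.142 and 0.168). Cross-hybridisation between the copies is possible and was not tested, so the 2 cannot be taken as independent. The ERK phosphatase gene dusp6.L, a direct FGF target in several vertebrates, was listed under the filter at 3.22 to 4.50 in heads and 3.24 to 6.63 in tails. The groups overlapped, and both means (4.03 and 5.02) lay below log2 6.54, the 20th percentile over the whole table, so no fold is given.

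**Figure D2:**
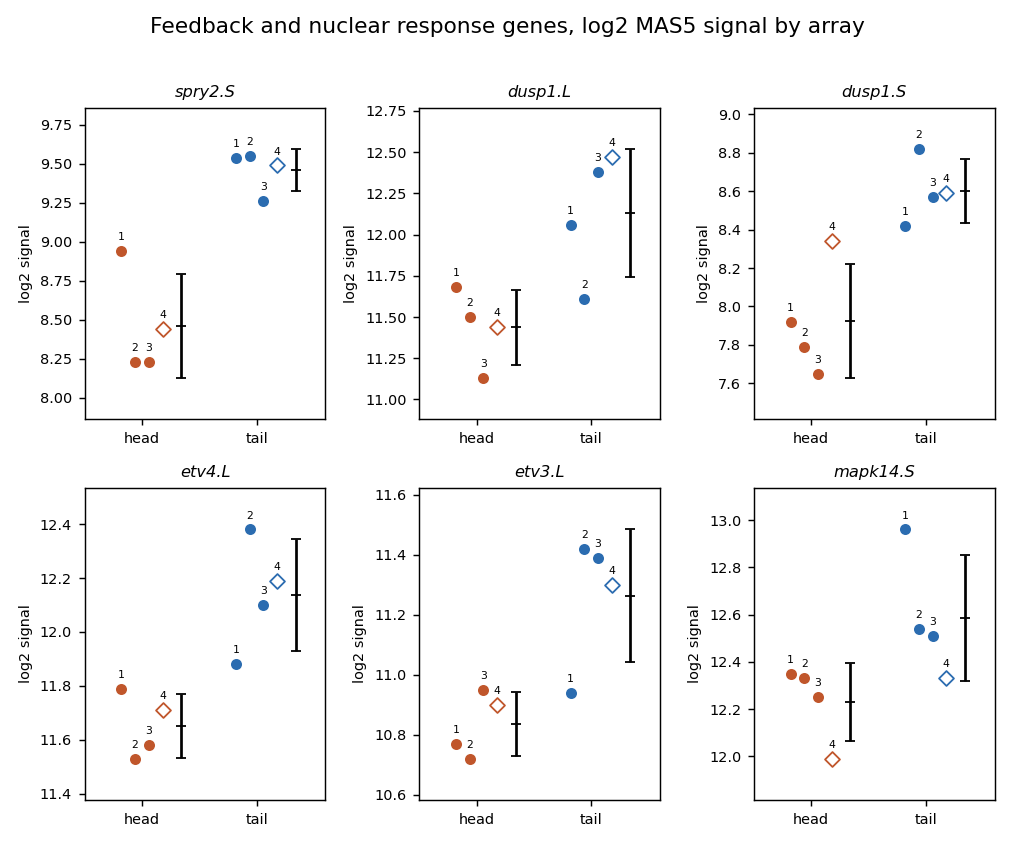
Log2 MAS5 signal (y axis) of 6 probe sets in heads and tails; circles are single embryos, open diamonds pools, small numbers replicates, and the black bar beside each group the mean with its SD. The tails of spry2.S sit between 9.26 and 9.55, above all heads, whereas tail replicate 1 is the lowest tail for etv4.L and etv3.L and the highest for mapk14.S.

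Among the nuclear factors, 2 ETV probe sets were tested. Both had differences below 0, and neither passed. The PEA3-type factor gene etv4.L, a common readout of FGF signalling, was at 11.79, 11.53, 11.58 and 11.71 in heads and 11.88, 12.38, 12.10 and 12.19 in tails. The groups did not overlap, although head replicate 1 and tail replicate 1 came close. Its means were 11.65 ± 0.12 and 12.14 ± 0.21 (SD, n = 4 each), a difference of -0.49 (95% interval -0.91 to -0.07, limma adjusted p = 0.20). The gene etv3.L, which encodes an ETS repressor, was at 10.77, 10.72, 10.95 and 10.90 in heads and 10.94, 11.42, 11.39 and 11.30 in tails. Here tail replicate 1 lay just inside the heads, and the difference was -0.42 (-0.85 to 0.01, limma adjusted p = 0.299). The second PEA3-type gene, etv1.S, was under the filter, with heads from 5.81 to 7.92 and tails from 6.66 to 8.06.

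The early response genes egr1.L and junb.L varied more between arrays of the same tissue than between the tissue means. The zinc finger gene egr1.L, which is transcribed within minutes of MAP kinase activation, was at 10.16, 8.65, 9.54 and 11.15 in heads and 8.50, 9.29, 12.01 and 12.44 in tails. Tail replicates 1 and 2 lay within the range of the heads or below it, and tail replicates 3 and 4 above all of them. The head mean was 9.87 ± 1.05 and the tail mean 10.56 ± 1.96 (SD over n = 4 arrays; head minus tail -0.69, 95% interval -2.46 to 1.08, limma adjusted p = 0.734). Leaving out 1 array moved this difference between -1.37 (without tail replicate 1) and -0.06 (without tail replicate 4), and none of the 8 omissions passed. Its spread within tissues, an SD of 1.57, stood at the 99.7th percentile of all probe sets tested. The AP-1 gene junb.L, another early response gene, was at 8.46, 7.32, 7.58 and 8.69 in heads and 7.59, 7.72, 8.89 and 9.99 in tails. Both genes ranked the arrays alike in each tissue: the pool was highest and replicate 2 lowest among heads, and the pool was highest and replicate 1 lowest among tails. This order of all 4 heads and all 4 tails was shared by 58 of 9295 probe sets tested (0.624%), egr1.L included. The difference of junb.L was -0.54 (-1.65 to 0.58, limma adjusted p = 0.659), and its within-tissue SD of 0.92 was at the 97.3th percentile.

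The related gene jun.L did not follow that order. It was at 8.89, 9.20, 7.81 and 8.74 in heads and 7.55, 8.81, 7.87 and 8.92 in tails, so that replicate 3 was the lowest head and replicate 1 the lowest tail. The head minus tail difference was 0.37 (95% interval -0.46 to 1.21, limma adjusted p = 0.690). The Jun family gene jund.S was steady: heads ran from 8.56 to 8.93 and tails from 8.67 to 9.13, a difference of -0.14 (-0.62 to 0.34, limma adjusted p = 0.807).

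**Figure D3:**
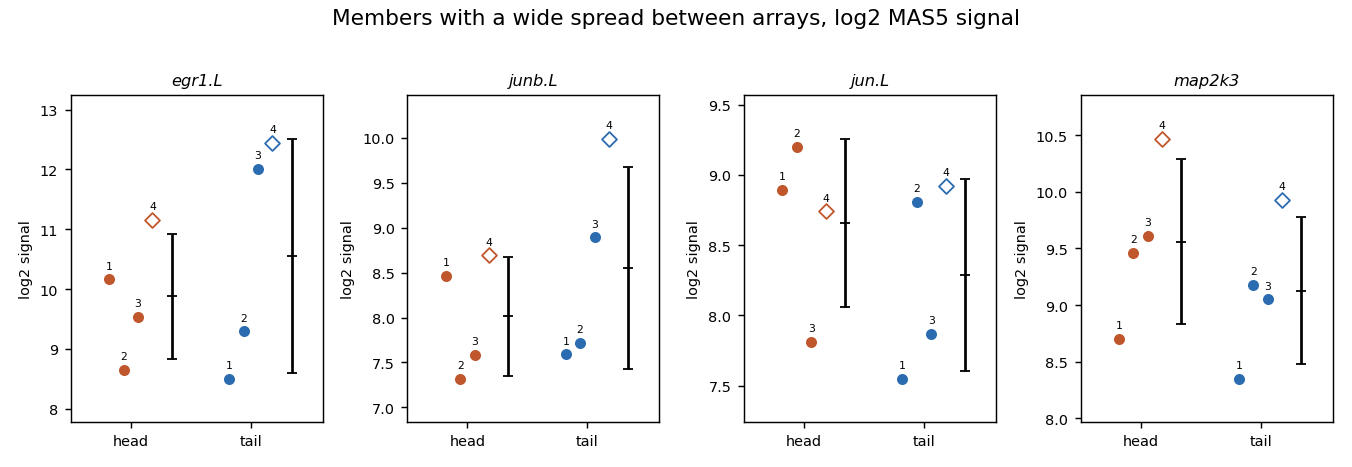
Log2 MAS5 signal (y axis) of 4 probe sets by tissue; circles are single embryos, open diamonds pools, small numbers replicates, and black bars mean and SD. For egr1.L the tails span 8.50 to 12.44, wider than the whole range of the heads, and junb.L orders the arrays the same way.

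Of the FGF ligands, 2 of 11 probe sets passed the filter, so this class is the least well measured. The gene fgf20.L, a member of the FGF9 group of ligands, was at 7.03, 7.71, 7.83 and 7.84 in heads and 8.11, 9.39, 8.68 and 9.0 in tails. All tails lay above all heads, and head replicate 1 was far below the other heads. The head mean was 7.61 ± 0.38 and the tail mean 8.80 ± 0.54 (SD over n = 4 arrays), 2.28-fold higher in tails, with a difference of -1.19 (95% interval -1.89 to -0.50). The head mean lay under the filter's log2 7.86, so fgf20.L was tested only through its tails. The limma adjusted p was 0.0566, just short of the threshold. It was 0.0293 with quantile normalization and 0.0282 with arrays centred on their median, but 0.0942 with no filter and 0.195 in the 6 single-embryo arrays. It was 0.0197 without tail replicate 1 and from 0.0924 to 0.151 when any other array was left out. The related ligand gene fgf9.S was at 8.13, 8.64, 8.87 and 7.95 in heads and 8.93, 9.45, 8.60 and 7.97 in tails. Both pools were the lowest of their tissue, and the groups overlapped (head minus tail -0.34, 95% interval -1.07 to 0.40, limma adjusted p = 0.682).

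The other 9 ligand probe sets lay under the filter, with low signals. The basic FGF gene fgf2 was at 4.65, 5.39, 4.05 and 3.62 in heads and 6.92, 6.14, 6.80 and 7.08 in tails. The groups were well apart (all tails lay above all heads for 4.33% of all 15491 probe sets), but all heads and tail replicate 2 had signals below log2 6.54. In a fit of all probe sets it passed (head minus tail -2.31, limma adjusted p = 0.0326; 2.93% of all probe sets passed there, and 1 of the 62 members). With values raised to the 20th percentile the difference was -0.29 (limma adjusted p = 0.267), so the fold is given as at least 1.22. Leaving out single arrays moved the adjusted p in the fit of all probe sets between 0.0270 and 0.108.

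For fgf8, a ligand of the tailbud, the midbrain-hindbrain boundary and the anterior neural ridge, 3 probe sets of the L copy were all under the filter. The first was at 7.25 to 8.24 in heads and 7.35 to 8.15 in tails, a difference of -0.12. The second was at 6.58 to 8.28 in heads and 5.54 to 7.34 in tails. Its tail mean, 6.40, lay below the 20th percentile, so the signal of heads is given as at least 1.71-fold that of tails. That is the size after raising values to this percentile, where the difference was 0.77 and did not pass (limma adjusted p = 0.44). The last was at 4.08 to 7.15 and 4.43 to 6.88, with both means (5.22 and 5.70) below that level and no fold given. None passed in the fit of all probe sets (limma adjusted p = 0.915, 0.307 and 0.847), and the groups overlapped for each. The posterior ligand gene fgf3.L ran from 5.14 to 7.03 in heads and 6.54 to 7.34 in tails. The ligand gene fgf4, known in Xenopus as embryonic FGF, had its L copy at 3.82 to 7.02 in heads and 4.30 to 4.68 in tails and its S copy at 3.54 to 5.14 and 2.98 to 5.30. The mesenchymal ligand gene fgf10.S was at 6.65 to 7.59 in heads and 7.49 to 7.90 in tails on its brighter probe set. The groups overlapped for each of these.

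No FGF receptor probe set passed the test in limma. Of 7 probe sets, 5 were tested, 1 of them at an unadjusted p under 0.05 (17.5% of all probe sets tested were). The head minus tail difference was above 0 for 4 of the 5, beside 56.0% of all probe sets, and 1 of these 4 was at 0.07. The gene fgfr4.S was at 9.31, 8.96, 9.30 and 9.37 in heads and 8.74, 8.68, 8.43 and 9.05 in tails. Only the tail pool overlapped the heads, lying above head replicate 2. The difference was 0.51 (95% interval 0.02 to 1.00, limma adjusted p = 0.266), with an unadjusted p of 0.0431. The tested probe set of fgfr4.L was at 8.95, 8.19, 8.32 and 8.49 in heads and 7.30, 8.10, 8.19 and 8.08 in tails. Head replicate 2 and tail replicate 3 met at 8.19, and tail replicate 1 lay far below the rest (0.57, -0.06 to 1.19, limma adjusted p = 0.339). The remaining fgfr4 probe set, under the filter, had a difference of 0.30.

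The gene of the main mesodermal and neural receptor, fgfr1.L, was highest in the pools. It was at 8.94, 9.22, 8.55 and 10.47 in heads and 7.59, 9.45, 8.31 and 10.31 in tails, so both pools lay above all 6 single-embryo arrays. Its difference was 0.38 (95% interval -0.83 to 1.59, limma adjusted p = 0.795), and from -0.06 to 0.84 when 1 array was left out. The pool was the highest array in both tissues for 8 of the 40 members (20%, against 15.9% of all probe sets tested), among them egr1.L, junb.L and map2k3. The 2 probe sets of fgfr2.L had differences of -0.10 and 0.07, with heads from 8.08 to 9.34 and 9.49 to 10.57 and tails from 8.32 to 9.13 and 9.12 to 10.45. The probe set of fgfr3.S lay under the filter, at 5.28 to 7.30 in heads and 5.10 to 6.46 in tails.

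**Figure D4:**
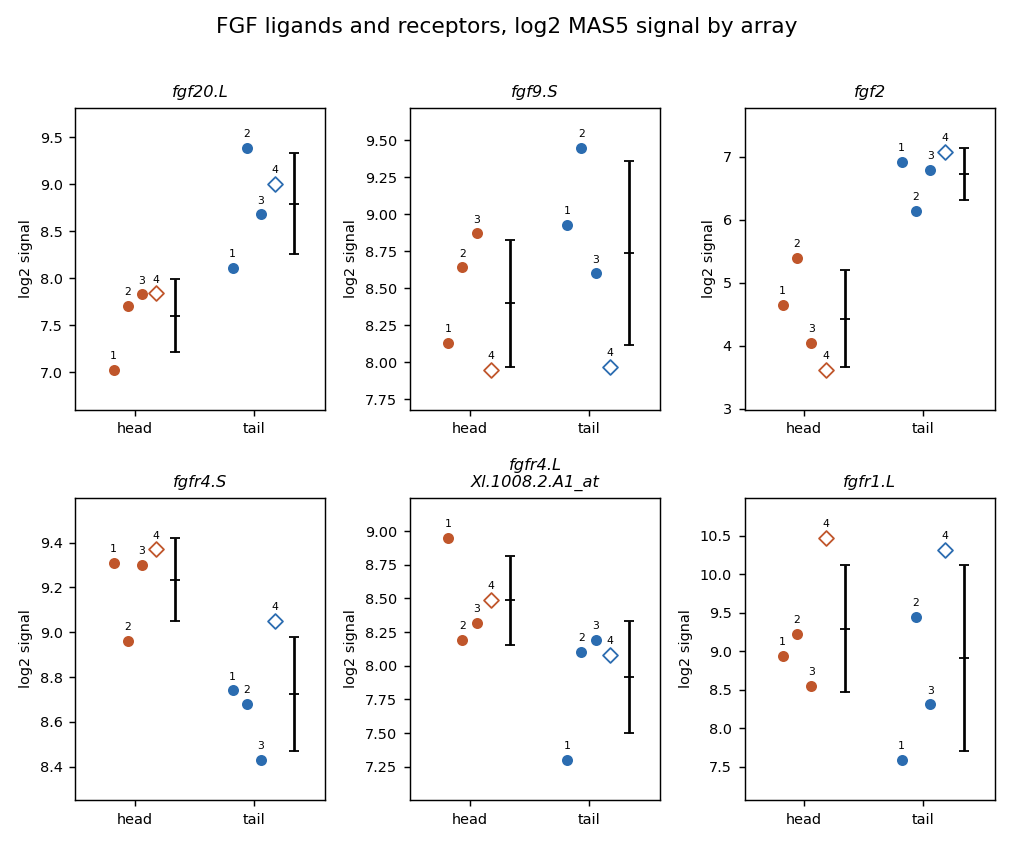
Log2 MAS5 signal (y axis) of 3 ligand and 3 receptor probe sets by tissue; circles are single embryos, open diamonds pools, small numbers replicates, and black bars mean and SD. The fgf20.L tails (8.11 to 9.39) lie above its heads (7.03 to 7.84), the fgfr4.S heads mostly above its tails, and both fgfr1.L pools above all single embryos.

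The adaptor and MAP3 kinase probe sets that were tested had differences between 0.03 and 0.23. The docking protein gene frs2.L was at 11.0, 11.21, 11.06 and 11.09 in heads and 10.74, 11.06, 11.07 and 11.37 in tails on its tested probe set. Its difference was 0.03 with a 95% interval of -0.41 to 0.47 (limma adjusted p = 0.959). The MAP3 kinase gene map3k7.L, whose product TAK1 serves TGF-beta, JNK and p38 signalling, was at 10.17, 10.19, 10.30 and 10.11 in heads and 10.03, 10.20, 10.10 and 10.34 in tails. Of the tested members this had the smallest spread, with a within-tissue SD of 0.11, at the 0.5th percentile of all probe sets tested, and a difference of 0.03 (-0.39 to 0.44, limma adjusted p = 0.961). The tested probe set of map3k7.S ran from 7.86 to 9.04 in heads and 7.64 to 9.05 in tails, a difference of 0.23. The gene map3k4.S, of the stress kinase cascades, was under the filter at 7.07 to 7.62 in heads and 6.66 to 7.46 in tails.

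Of 7 MAP2 kinase probe sets 6 were tested, 3 with a difference above 0 and 3 below, and 0 passed. The MEK1 gene map2k1.L, the direct activator of ERK, was at 9.18, 9.08, 9.36 and 9.40 in heads and 8.96, 9.47, 9.40 and 9.95 in tails (head minus tail -0.19, 95% interval -0.72 to 0.34, limma adjusted p = 0.758). The tails spread on both sides of the heads. The ERK5 activator gene map2k5.L had a difference of -0.41 (-0.99 to 0.17), and the p38 activator gene map2k3 one of 0.43 (-0.43 to 1.29), with replicate 1 lowest and the pool highest in each tissue. The 3 probe sets of map2k4, an activator of JNK, had differences of 0.15, 0.00 and -0.14, and the JNK activator gene map2k7.L was under the filter.

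All 5 MAP kinase probe sets were tested, and they came from JNK and p38 genes. The p38 alpha gene mapk14.S was at 12.35, 12.33, 12.25 and 11.99 in heads and 12.96, 12.54, 12.51 and 12.33 in tails. Only the tail pool overlapped the heads, and the pool was the lowest array of both tissues (-0.36, 95% interval -0.79 to 0.08, limma adjusted p = 0.401). The JNK1 gene mapk8 had differences of -0.08 for the L copy and 0.22 for the S copy. The p38 genes mapk11.S and mapk12.S had differences of 0.11 and 0.13. The genes mapk3, spry1, spry4, spred1, spred2, dusp4, dusp5, il17rd, etv5, frs3, fgfrl1 and flrt3 were not analysed here.

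The remaining names belong to the rule but not clearly to the pathway. Of 6 probe sets of dusp11.L, dusp12.L, dusp18.L, dusp19.L and dusp23.L, genes of atypical phosphatases not known as feedback regulators of FGF signalling (dusp11 encodes an RNA phosphatase), 5 were tested and 0 passed, with differences from -0.98 to 0.39. The dusp11.L probe sets were at -0.98 and 0.38. The first had head replicate 3 at 5.36 against 8.16 to 8.85 in the other heads. Its head mean, 7.74, was under the filter's log2 7.86, so it was tested only through its tails. The gene spryd7.S shares only part of its name with Sprouty and encodes a protein with an unrelated SPRY domain. One of its 4 probe sets had no overlap, with heads from 9.91 to 10.31 and tails from 10.35 to 10.90 (-0.50, limma adjusted p = 0.235), and the others differed by -0.48, -0.20 and 0.25. The gene fgfr1op2.S, named for a fusion with the fgfr1 gene, had a difference of 0.70 (limma adjusted p = 0.308). Tail replicate 1 was at 6.98 against 7.87 to 8.27 in the other tails. The tail mean of fgfr1op2.S, 7.82, was also under the filter, so it was tested only through its heads. Probe sets annotated fosp1a.L and fosp1b.S were under the filter, and no role is given for them here.

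Copies and repeated probe sets did not always give the same sign. Of 14 genes with several probe sets, 8 had 2 or more tested. In 3 of these 8 all tested probe sets leaned the same way (dusp1, fgfr4 and map3k7), and in 5 they did not (dusp11, fgfr2, map2k4, mapk8 and spryd7). The dusp1 copies, which may cross-hybridise, differed by 0.02 on the log2 scale in their head minus tail difference and the dusp11.L probe sets by 1.36.

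Tail replicate 1 was the lowest tail for 23 of the 40 tested members (57.5%), against 35.0% of all probe sets tested. Among them were etv4.L, etv3.L, fgf20.L, egr1.L, junb.L, jun.L, map2k1.L, fgfr1.L and the tested fgfr2.L and fgfr4.L probe sets. It also had the lowest median signal of all arrays and the highest summed muscle marker signal, as given above. Their part in these values was not tested. Without this array the differences were -0.98 for spry2.S, -1.42 for fgf20.L and -1.37 for egr1.L.

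Other genes of the pathway, from lists of Ras and adaptor, heparan sulfate, effector and FGF-dependent mesoderm genes, passed the test for 6 of 63 probe sets, 2 as higher in heads and 4 as higher in tails. This is 9.52%, beside 4.62% of all probe sets tested, and the 4 are tail markers. Of 13 Ras, Raf and adaptor probe sets tested 0 passed in limma, with 1 at an unadjusted p under 0.05 (17.5% of all probe sets were). That was the scaffold gene cnksr1.L, 1.63-fold higher in tails without overlap (limma adjusted p = 0.0842). Of 14 heparan sulfate probe sets 0 passed, with 4 at an unadjusted p under 0.05 (17.5% of all probe sets were). Of these, 1 had a difference above 0 and 3 had one below. The first was sulf2.L, which encodes a sulfatase that trims heparan sulfate, at 8.46, 8.64, 8.64 and 9.01 in heads and 6.81, 7.78, 8.05 and 8.13 in tails (head minus tail 1.00, limma adjusted p = 0.114), with all heads above all tails. Its tail mean of 7.69 was under the filter's 7.86, so it was tested only through its heads. The other 3 were ugdh.L, whose product makes a sugar precursor of the chains (-0.95, limma adjusted p = 0.0715), the syndecan gene sdc2.L (-0.63, 0.169) and xylt1.L, whose product starts the chains (-0.76, 0.237), and the groups overlapped for each. The head mean of xylt1.L, 7.54, was under the filter. Another tested sdc2.L probe set had a difference of -0.33 (limma adjusted p = 0.532).

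Of 31 effector and nuclear factor probe sets, 2 passed as higher in heads and 0 as higher in tails (6.45% in all, against 4.62% of all probe sets), both of mycn, the gene of the growth-promoting factor N-Myc. The mycn.L probe set was at 11.12, 11.95, 12.03 and 12.38 in heads and 8.84, 9.72, 9.70 and 9.92 in tails. All heads lay above all tails, by 5.01-fold on average (limma adjusted p = 0.00117), and mycn.S was 3.13-fold higher in heads (limma adjusted p = 0.0125, and 0.0516 without head replicate 3). The tail mean of mycn.S, 7.39, was under the filter's 7.86, so it passed the filter only through its heads. Both calls are copies of 1 gene. Cross-hybridisation between these copies is possible and was not tested, so the 2 calls cannot be taken as independent. Probe sets of the related gene myc had differences from 0.09 to 0.21, and none passed. At an unadjusted p under 0.05 this list had 2 higher in heads and 2 higher in tails, against 8.84% and 8.61% of all probe sets. The tail ones were rps6ka1.L (-0.67, limma adjusted p = 0.155) and elf1.L (-0.55, 0.256), and the groups overlapped for each. Other ETS genes outside the naming rule had differences of 0.25 for ets1.L, 0.18 for ets1.S and -0.07 for ets2.L. They were -0.60 to 0.26 for the 4 probe sets of erf.S, -0.19 for elf1.S and -0.10 for elf2.L, and none passed. Among probe sets of genes known in Xenopus to need FGF in the mesoderm, 4 of 5 tested passed as higher in tails (hoxa7.L, tbxt.S, tbx6.L and wnt8a.L). Of all probe sets tested 2.61% did. The wnt8a.L call was lost without head replicate 3 (limma adjusted p = 0.0609), tail replicate 2 or tail replicate 3. These 4 also serve as tail markers above, so their direction was known when they were listed. Of the 4, hoxa7.L, tbxt.S and tbx6.L had head means of 4.81, 7.67 and 7.35, under the filter's 7.86, and passed the filter only through their tails. The fifth probe set, myod1.S, had a difference of -1.09 (limma adjusted p = 0.225).

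**Figure D5:**
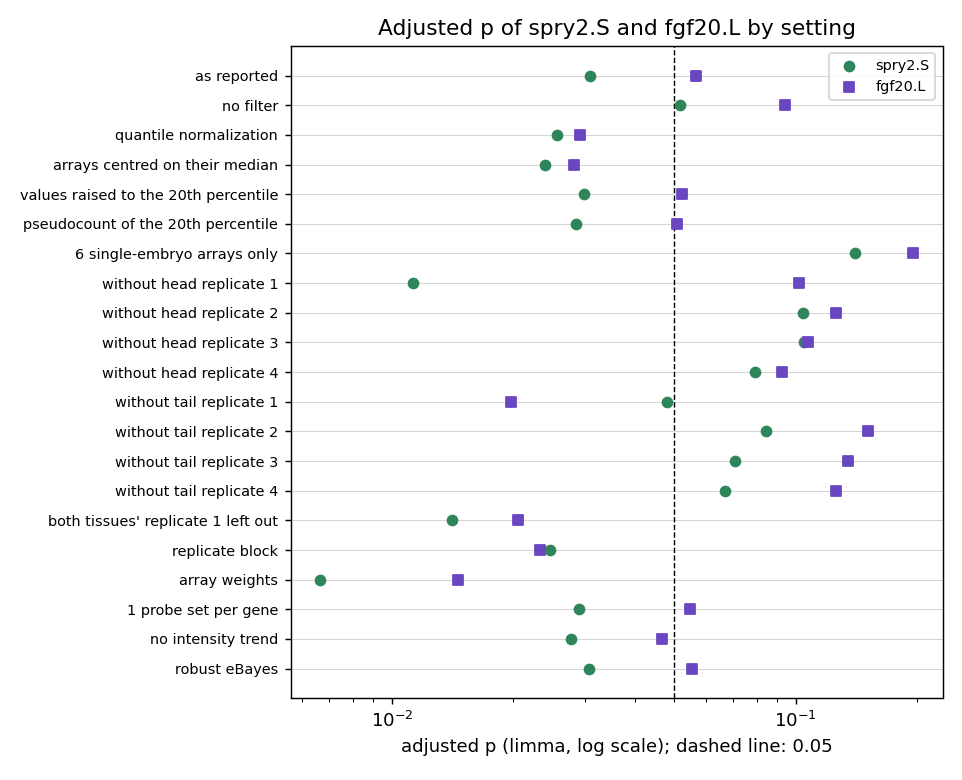
Adjusted p of the limma test (x axis, log scale) for spry2.S (circles) and fgf20.L (squares) as reported and under each alternative setting (y axis), with a dashed line at the threshold of 0.05. The spry2.S call of 0.0309 crosses the line in 6 of 8 single-array omissions, and fgf20.L at 0.0566 crosses it the other way under quantile normalization, median centring and several further settings.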

How the data were processed

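Total RNA (100 ng) of each fragment was labelled with biotin through 2 amplification cycles, per the labels' protocols. The deposited intensity values are MAS5 signals, as the submitters' processing notes name the tool, without its version. The 2% trimmed mean was 1000.1 to 1000.2 on every array, so the authors had scaled the arrays. No detection calls or scanner values were used. The 120 control probe sets were left out. Of 15491 others, 9304 had 1 symbol (9227 matched by gene identifier to RefSeq names of Xenopus_laevis_v10.1), 195 had several and 5992 were unnamed. No sequences are shown.

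Signals were raised to at least 1 and log2 taken. Probe sets with a mean under the 40th percentile, log2 7.86, were filtered out. The test of heads against tails used R 4.3.3 and limma 3.58.1 (eBayes with an intensity trend, all 8 arrays, no covariate, Benjamini-Hochberg over 9295 probe sets, two-sided). Values under the filter come from a fit of all 15491. Where a mean lay under the 20th percentile, 93.31 units, a fold is written as at least its size after raising values to that level, and none is given where both did. On simulated data with 200 changed probe sets, the steps recovered 35% of 2-fold and 87% of 4-fold changes, with 3 false calls. The simulated noise was independent between probe sets and arrays. Deviations that probe sets share on an array were not simulated, so the rates in these data can differ. Because not every change was recovered, a probe set that did not pass can still differ.

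Members and lists were chosen with earlier results of these data known. The rule for named members took all past the threshold, the 2 brightest of each role where none passed, and a fixed list of FGF, receptor, feedback and ETV genes; other members and pathway genes were named after their values were seen. Replicate numbers were not treated as pairs: correlations of same-numbered deviations were 0.23, 0.03, 0.02 and 0.60. Alternatives changed the filter, scaling, low values, arrays, weights, block and eBayes settings.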

Additional observations from a re-analysis of the deposited data

Results flagged for a closer look

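Head replicate 1 of fgf20.L stood apart from the other heads, at a log2 signal of 7.03 against 7.71 to 7.84, and tail replicate 1 of the tested fgfr4.L probe set stood apart from the other tails, at 7.30 against 8.08 to 8.19. Both were found by the gap of the extreme array relative to the range of its 4 arrays. Of 70 groups of 4 examined, 2 were marked in this way, and chance marks about 1 in 20.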

How the results depend on the processing

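Over all probe sets the number past the threshold was 429, and 273 with the filter at the 60th percentile, 211 in the 6 single-embryo arrays, 683 with both tissues' replicate 1 left out, 1223 with array weights, 635 with the replicate number as a block, and 208 to 501 when 1 array was left out. Members higher in tails were 1, and 0 with the filter at the 60th percentile (spry2.S then falls under it) or in the single-embryo arrays, 2 with quantile normalization, arrays centred on their median, both tissues' replicate 1 left out, the replicate block or no intensity trend, 4 with array weights, and 0 to 2 when 1 array was left out; members higher in heads were 0 in all of these. With no filter the 1 member was fgf2 in place of spry2.S. Calls of other pathway genes were 6, and 10 with no filter or without both replicates 1, 2 with the 60th percentile filter, 3 in single embryos, 12 with array weights, and 4 to 7 when 1 array was left out. The labels do not say whether equal numbers pair the samples, and not every array correlated best with its own number. The replicate block moved fgf20.L to an adjusted p of 0.0233.

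Some differences changed sign. With both tissues' replicate 1 left out they were dusp12.L (0.07), mapk8.L (0.12), fgfr2.L (-0.08), frs2.L (-0.05) and map3k7.L (-0.01). With median centring they were fgfr2.L (-0.00), frs2.L (-0.04) and map3k7.L (-0.04), and with array weights dusp12.L (0.10). A further setting, no filter with low values raised, was chosen after seeing the data, like the single-array omissions under no filter. There fgf4.S moved from 0.23 to -0.00, the last fgf8.L probe set from -0.48 to 0.07 and spry2.L from -0.06 to 0.15. None of these passed in either setting, and the cause was not tested. Omitting 1 array gave -0.14 to 0.09 for dusp12.L, -0.17 to 0.61 for fgf4.S and -0.06 to 0.84 for fgfr1.L. The range was -0.33 to 0.09 and -0.17 to 0.27 for the fgfr2.L probe sets and -0.31 to 0.36 for fgfr3.S. It was -0.20 to 0.15 and -0.07 to 0.13 for frs2.L and -0.02 to 0.08 for map3k7.L. For mapk8.L it was -0.19 to 0.03 and for spry2.L -0.46 to 0.29. The first fgf8.L probe set ran from -0.30 to 0.04, and the others kept their sign (0.83 to 1.43 and -1.12 to -0.08). Of 285 comparisons of 35 named probe sets with an alternative, single-array omissions aside, 262 kept direction and side of the threshold; dusp1.L (adjusted p = 0.0149) and etv4.L (0.0491) passed with array weights. Dim probe sets limit the ligands most.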
